A study of Mus musculus with 15 samples.

Results

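The 8 genes described here mark the fibroblasts around blood vessels and fibroblasts of most tissues, and were followed through 3 cell populations sorted from a mouse melanoma. They were Pi16, Dpp4, Clec3b, Dpt, Ly6a, Ly6c1, Cd248 and Thy1, 8 of the 53465 genes in the table of normalized counts, and all 8 passed the filter on low values (a mean of at least 5), which their EVP values alone would meet. The genes were taken by name, and were picked with their high values in 1 of the populations already known. Their levels are therefore given as a description, without a test between populations.

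B16-F0 cells, a mouse melanoma line, formed tumors in CAG-GFP mice (young adults of both sexes), and host cells were sorted from them after 15 days. All 3 populations were GFP+, negative for lineage markers of blood cells and CD34+. Endovascular progenitors (EVP) were low for both CD31 and VEGFR2, transit amplifying cells (TA) had intermediate CD31 and low VEGFR2, and definitive differentiated cells (D) were high for both. From each population 5 libraries were sequenced, 15 in all. The CAG promoter is active in nearly every cell type, so GFP separated host cells from tumor cells and did not select for endothelium. In other mice, with a label driven by Cdh5, the paper reports the label in nearly all lineage-negative CD34+ tumor cells. It takes this as evidence of their endothelial origin. Those mice were not the source of these libraries. Whether the libraries of a population came from separate animals is not given in the sources used here, so the spread between them may be partly technical.

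The adventitia is the outermost layer of a vessel wall, a sheath of collagen that holds fibroblasts, nerves and progenitor-like stromal cells. Adventitial fibroblasts in many organs carry Pi16, Dpp4, Clec3b and Ly6a, and together with Dpt these genes are used to mark a fibroblast state found in nearly all tissues. Pi16 encodes a secreted peptidase inhibitor with a CAP domain, and Dpp4 (CD26) a membrane peptidase that trims peptides after proline or alanine. Clec3b encodes tetranectin, which binds plasminogen, and Dpt encodes dermatopontin, a matrix protein that binds decorin and helps collagen fibrils to assemble. Cd248 (endosialin) is a membrane lectin of fibroblasts and pericytes, and Thy1 (CD90) is a glycoprotein held in the membrane by a GPI anchor. Ly6a (Sca-1) and Ly6c1 (Ly-6C) are GPI-anchored proteins of a gene cluster on chromosome 15, and in the mouse both are also made by endothelial cells and by blood cells.

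The libraries held 5394356 to 26513073 gene reads (median 19049194). The 8 genes took 0.447% to 1.02% of these reads in EVP, 0.130% to 0.337% in TA and 0.0290% to 0.0686% in D. The libraries with replicate number 1 stood apart in their reads from the repeat-like gene Gm10800, which were 8.50% to 10.6% of the total against at most 0.701% elsewhere. In them 75.9% to 96.3% of the 1387 olfactory receptor genes had a read. This share was 13.6% (EVP replicate 3) to 65.0% (TA replicate 3) in the libraries numbered 2 and 3. It was 2.67% to 4.54% in those numbered 4 and 5. The endothelial label was checked with Pecam1, Cdh5 and Kdr, of which Pecam1 (CD31) and Kdr (VEGFR2) had been used in the sort. Pecam1 measured 19114 to 32189 normalized counts in D, 372 to 15414 in TA and 119 to 613 in EVP. Cdh5, which encodes VE-cadherin, measured 7196 to 13383 in D, 138 to 7680 in TA and 18.3 to 183 in EVP. Kdr measured 15216 to 26252 in D, 408 to 9699 in TA and 94.1 to 712 in EVP, where the defining endothelial markers were thus present at low levels. Col1a1, the main collagen chain of fibroblasts, measured 255698 to 312700 in EVP, 62272 to 227624 in TA and 351 to 1568 in D. In sorted bulk samples, fewer cells of a type and less RNA per cell cannot be told apart.

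The stretch before the start of transcription is shown for the members with an entry in the RefSeq promoter table of GRCm38.p6 (4 of 8 matched by symbol). The first 3 belong to the genes with the widest gap between EVP and D among the 4 with an entry. Clec3b, which had no entry, had a wider gap than Dpp4. The capitals mark matches to any of 4 common promoter motifs. Each run is the 250 bases before the start, on the strand of the gene, at chr17:29318632-29318881 (plus strand) for Pi16, chr2:62412232-62412481 (minus strand) for Dpp4 and chr1:164796413-164796662 (plus strand) for Dpt.
Pi16: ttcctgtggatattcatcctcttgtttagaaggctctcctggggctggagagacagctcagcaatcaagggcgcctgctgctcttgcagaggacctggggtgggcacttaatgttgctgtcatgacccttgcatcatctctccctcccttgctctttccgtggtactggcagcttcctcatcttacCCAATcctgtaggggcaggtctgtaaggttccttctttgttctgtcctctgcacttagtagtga
Dpp4: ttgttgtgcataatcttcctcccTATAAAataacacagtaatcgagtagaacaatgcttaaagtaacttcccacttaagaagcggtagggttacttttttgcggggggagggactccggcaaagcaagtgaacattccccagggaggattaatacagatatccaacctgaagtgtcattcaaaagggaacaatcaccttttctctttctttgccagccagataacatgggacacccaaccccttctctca
Dpt: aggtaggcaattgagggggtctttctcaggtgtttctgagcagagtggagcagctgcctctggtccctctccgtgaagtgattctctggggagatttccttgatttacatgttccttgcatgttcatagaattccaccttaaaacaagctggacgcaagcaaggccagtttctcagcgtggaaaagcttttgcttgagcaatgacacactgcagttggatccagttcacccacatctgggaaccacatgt
The motifs were searched on both strands as TATAAA (the TATA box), as CCAAT (the CCAAT box), as GGGCGG (bound by Sp factors) and as TGAGTCA (bound by AP-1). Pi16 held 1 CCAAT, which began 64 bases before the start, and Dpp4 held 1 TATAAA, 227 bases before it. None of the 4 letter strings was present in the window of Dpt. Of 32851 promoter windows of the same length, 12.4% held the TATA box, 33.8% the CCAAT box, 32.7% the Sp motif and 4.46% the AP-1 motif. The motifs do not overlap one another in these windows, and a match is a description of the letters only.

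Ly6c1 is shown beside Ly6c2, its closest relative in the cluster, because the pair had very unequal levels. Here the capitals mark the bases that did not align to an identical base in the other sequence. The runs lie on the minus strand at chr15:75048838-75049087 for Ly6c1 and chr15:75111972-75112221 for Ly6c2.
Ly6c1: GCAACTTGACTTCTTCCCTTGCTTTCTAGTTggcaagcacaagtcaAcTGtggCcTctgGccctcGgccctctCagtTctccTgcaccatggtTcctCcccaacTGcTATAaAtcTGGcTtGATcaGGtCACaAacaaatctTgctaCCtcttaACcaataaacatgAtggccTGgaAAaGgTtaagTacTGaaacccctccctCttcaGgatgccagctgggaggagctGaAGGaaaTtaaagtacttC
Ly6c2: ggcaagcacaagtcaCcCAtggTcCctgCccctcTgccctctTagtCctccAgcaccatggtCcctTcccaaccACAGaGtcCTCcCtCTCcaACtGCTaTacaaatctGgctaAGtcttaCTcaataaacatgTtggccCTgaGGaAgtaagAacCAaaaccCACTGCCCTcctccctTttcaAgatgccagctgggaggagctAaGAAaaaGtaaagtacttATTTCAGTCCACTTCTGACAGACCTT
Between the first and the last aligned base, 164 of 228 positions were identical (71.9%). The coding sequences of their most similar annotated transcripts were closer, with 387 of 396 bases identical (97.7%). Yet Ly6c2 measured 0.816 to 108 normalized counts over the 15 libraries, where Ly6c1 measured 1675 to 15008. The authors counted reads per gene, and 18.5% of the stretches of 76 bases in Ly6c1 also occur in Ly6c2 or Ly6a, so part of the reads of these genes could not be assigned to 1 of them. Ly6a shared 5.87% of its stretches with Ly6c1 and Ly6i, and the share was at most 2.5% for the other members.

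Pi16, Dpp4, Clec3b and Dpt were abundant in EVP, lower in TA, and present at no more than 64 reads per library in D. For none of them did any EVP library overlap with any TA library, or any TA library with any D library. Between EVP and D, all 8 members were higher in EVP without overlap, as were 10.2% of the 25549 tested genes. Between EVP and TA, 6 of 8 were higher in EVP without overlap (2.7% of tested genes), and between TA and D, 6 of 8 were higher in TA (5.56% of tested genes). The members were chosen from these contrasts, so the shares are given for scale only.

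**Figure D1:**
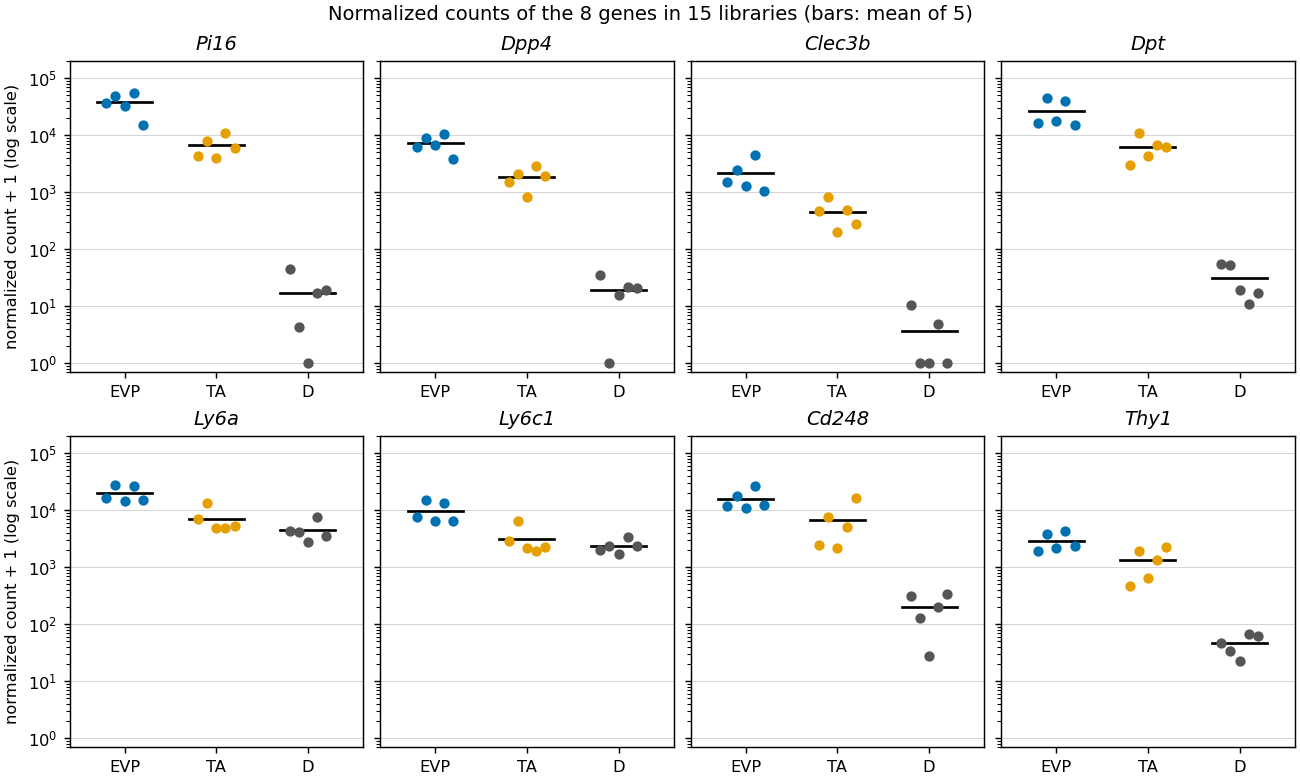
Normalized count plus 1 (log scale) of each of the 8 genes in the 5 EVP, 5 TA and 5 D libraries. Points are libraries, ordered by replicate number, and bars are means. For 6 genes the mean in D is between 2.67 and 200.9, whereas for Ly6a and Ly6c1 it is 4467 and 2371.

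Pi16 lies on chromosome 17 (chr17:29318877-29329413, plus strand; positions of genes are those of the deposited table, on GRCm38). It measured 37074, 48685, 32248, 55927 and 14801 normalized counts in EVP replicates 1 to 5. In TA the values were 4359, 7956, 4021, 11048 and 5974, and in D they were 43.9, 3.27, 0, 15.8 and 18.1. The populations were fully separated, and the highest D library held far less than the lowest TA library. Means were 37747 ± 15870 in EVP, 6672 ± 2901 in TA and 16.2 ± 17.3 in D (SD, n = 5 each), a ratio of 2327 between EVP and D and of 5.66 between EVP and TA. On the scale of log2(normalized count + 1), EVP exceeded D by 11.89 (SE 0.74), which was the widest gap of the 8 genes. The D values rested on 32, 4, 0, 21 and 30 reads.

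Dpp4 lies on chromosome 2 (chr2:62330073-62412231, minus strand). It measured 6190, 8964, 6668, 10567 and 3849 in EVP and 1524, 2074, 836, 2915 and 1947 in TA. In D it measured 34.3, 0, 14.9, 20.3 and 19.9, from at most 33 reads. EVP replicate 5 was the lowest EVP library for both Pi16 and Dpp4, and EVP replicate 4 the highest for both. The means, 7248 ± 2597, 1859 ± 763 and 17.9 ± 12.3, gave ratios of 405 between EVP and D and 3.90 between EVP and TA. Fap, a closely related peptidase of activated fibroblasts encoded 88711 bases away, measured 2461 ± 847 in EVP, 938 ± 558 in TA and 24.8 ± 25.2 in D. Fap was called higher in EVP than in D by limma (adjusted p = 3.56e-06).

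Clec3b lies on chromosome 9 (chr9:123150946-123157432, plus strand). It measured 1482, 2422, 1299, 4443 and 1042 in EVP and 474, 825, 199.8, 482 and 276 in TA. In D it was listed at 0 in 3 libraries, and measured 9.61 in replicate 1 and 3.76 in replicate 4, from 7 and 5 reads. A count of 0 allows up to 3 reads, which equalled 1.81 to 2.45 normalized counts in those 3 libraries. Clec3b was the scarcest of the 8 genes in EVP by total count, and its means of 2138 ± 1390 and 2.67 ± 4.21 gave a ratio of 800 between EVP and D. On the log2 scale the difference was 9.72 (SE 0.65), but 7.52 with a pseudocount of 8, since it depended on how the libraries at 0 were treated.

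Dpt lies on chromosome 1 (chr1:164796644-164824266, plus strand). It measured 16098, 44579, 18083, 40391 and 15253 in EVP, with replicates 2 and 4 far above the other EVP libraries. In TA the values were 2942, 11052, 4231, 6695 and 6292, and in D they were 53.5, 52.2, 18.0, 9.77 and 15.7. Dpt was the only one of the 4 adventitial genes with reads in every D library. Means were 26881 ± 14358, 6242 ± 3093 and 29.8 ± 21.3, with a ratio of 901 between EVP and D.

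D replicate 1 was the highest D library for all of Pi16, Dpp4, Clec3b and Dpt. In this library 84.4% of olfactory receptor genes had a read, against 2.67% to 21.5% in the other D libraries, and 19881 normalized counts came from 16 pan-fibroblast genes, against a median of 13292 over D. The part of either in the D levels was not tested. Without replicate 1, the D mean of 4 libraries was 9.29 for Pi16, 13.8 for Dpp4, 0.939 for Clec3b and 23.9 for Dpt.

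Cd248 and Thy1 were also highest in EVP, but with a shallower gap to D and an overlap between EVP and TA. Cd248 lies on chromosome 19 (chr19:5068078-5070637, plus strand). It measured 12085, 17487, 10747, 26221 and 12139 in EVP, 2491, 7670, 2134, 5182 and 16325 in TA, and 314, 129.8, 26.6, 200.6 and 333 in D. TA replicate 5 alone lay within the EVP range, and without it Cd248 no longer overlapped between EVP and TA. Means were 15736 ± 6406, 6760 ± 5797 and 200.9 ± 128, so the level in D was 1.28% of that in EVP.

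Thy1 lies on chromosome 9 (chr9:44043384-44048579, plus strand). It measured 1907, 3782, 2144, 4250 and 2368 in EVP, 467, 1948, 653, 1324 and 2308 in TA, and 46.7, 32.7, 21.9, 67.6 and 60.4 in D. TA replicates 2 and 5 reached the lower EVP libraries, while every D library stayed below every TA library. The means of 2890 ± 1054, 1340 ± 797 and 45.9 ± 18.9 gave a ratio of 63.0 between EVP and D and of 2.16 between EVP and TA, the smallest of the 8 in the latter comparison.

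Ly6a and Ly6c1 had a different pattern, with over 1000 normalized counts in every library of every population. Ly6a (chr15:74994877-74998031, minus strand) measured 16144, 27271, 14403, 27212 and 15041 in EVP. In TA the values were 7087, 13692, 4884, 4793 and 5279, and in D they were 4293, 4088, 2765, 7588 and 3600. EVP stood above both other populations without overlap, whereas TA and D overlapped. Means were 20014 ± 6627, 7147 ± 3775 and 4467 ± 1841, which placed D at 22.3% of EVP. The protein of Ly6a was among the surface markers stained in the study. In other mice, the paper reports that EVP of B16-F0 tumors were positive for it. No gate on it is given for the sort of these populations.

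Ly6c1 (chr15:75044018-75048830, minus strand) measured 7602, 15008, 6549, 13634 and 6549 in EVP, 2875, 6365, 2137, 1960 and 2303 in TA, and 1999, 2355, 1675, 3450 and 2376 in D. The TA and D ranges lay almost on top of each other apart from TA replicate 2. Means were 9868 ± 4116, 3128 ± 1842 and 2371 ± 669, and D held 24.0% of the EVP level. The log2 difference between EVP and D was 2.19 (SE 0.31) for Ly6a and 2.00 (SE 0.32) for Ly6c1. The median of all tested genes was itself shifted by 0.46 toward EVP in this comparison and by -0.05 after quantile normalization. Relative to that median, Ly6a was 1.73 and Ly6c1 1.54 higher in EVP than in D, and 2.24 and 2.00 after quantile normalization. Between TA and D the difference of Ly6c1 was 0.29 (SE 0.32), and it turned to -0.0044 without TA replicate 2.

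Ly6a and Ly6c1 kept nearly the same proportion to each other wherever they were measured. The ratio of their normalized counts was 1.82 to 2.30 in EVP, 2.15 to 2.47 in TA and 1.52 to 2.20 in D. Over the 10 EVP and TA libraries its SD was 0.13 on the log2 scale, the smallest among the 28 pairs of members. The next pairs were Cd248 with Thy1 (SD 0.35) and Pi16 with Dpp4 (SD 0.36). The genes of the tightest pair lie 45986 bases apart with no protein-coding gene between them, and their closest annotated coding sequences were 82.0% identical. The ratio of Cd248 to Pi16 varied more, from 0.326 to 0.820 in EVP and from 0.469 to 2.73 in TA, where replicate 5 was the highest.

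**Figure D2:**
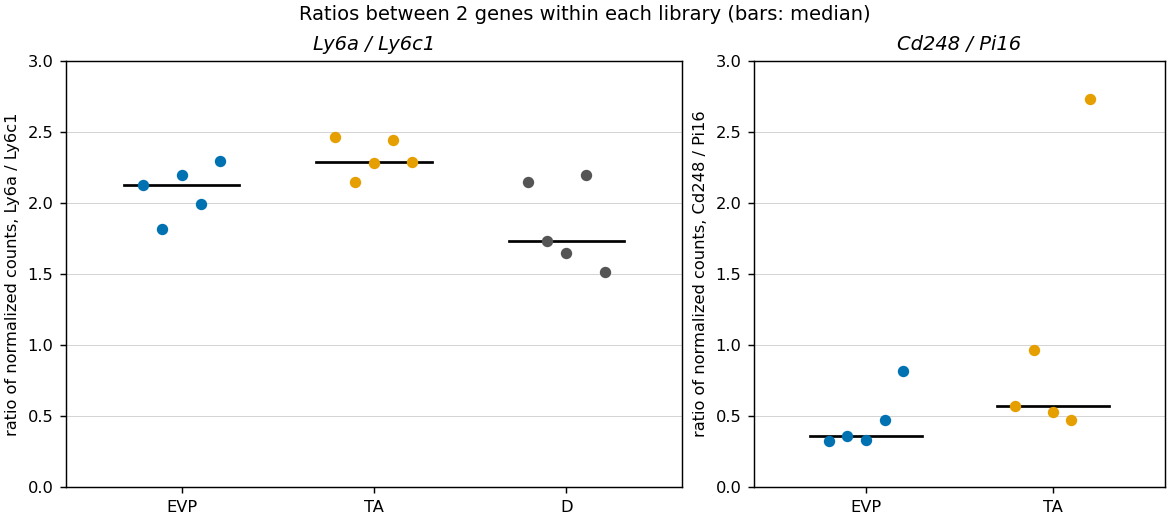
Ratio of normalized counts of Ly6a to Ly6c1 in all 15 libraries (left) and of Cd248 to Pi16 in the EVP and TA libraries (right). Points are libraries and bars are medians. The first ratio stays between 1.52 and 2.47, and the second reaches 2.73 in TA replicate 5.

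The place of TA between the other populations was put on a scale on which the EVP mean was 0 and the D mean 1, using log2(normalized count + 1). For 6 of the 8 genes it lay in a narrow range, at 0.21 for Pi16, Dpt and Thy1, 0.22 for Dpp4, and 0.23 for Clec3b and Cd248. With single libraries left out, the place ran from 0.19 to 0.30 for Cd248, the widest range of the 6, and from 0.16 to 0.26 for Thy1. For Clec3b it was 0.29 with a pseudocount of 8. Ly6a at 0.71 and Ly6c1 at 0.86 were nearer to D. Among single TA libraries, Pi16 varied from 0.14 to 0.26 and Thy1 from 0.04 to 0.43. Ly6c1 varied from 0.27 in replicate 2 to 1.12, and its 3 highest libraries lay at or beyond the D mean. In normalized counts, TA held 17.7% of the EVP level for Pi16 and 46.4% for Thy1, with the other members between them.

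**Figure D3:**
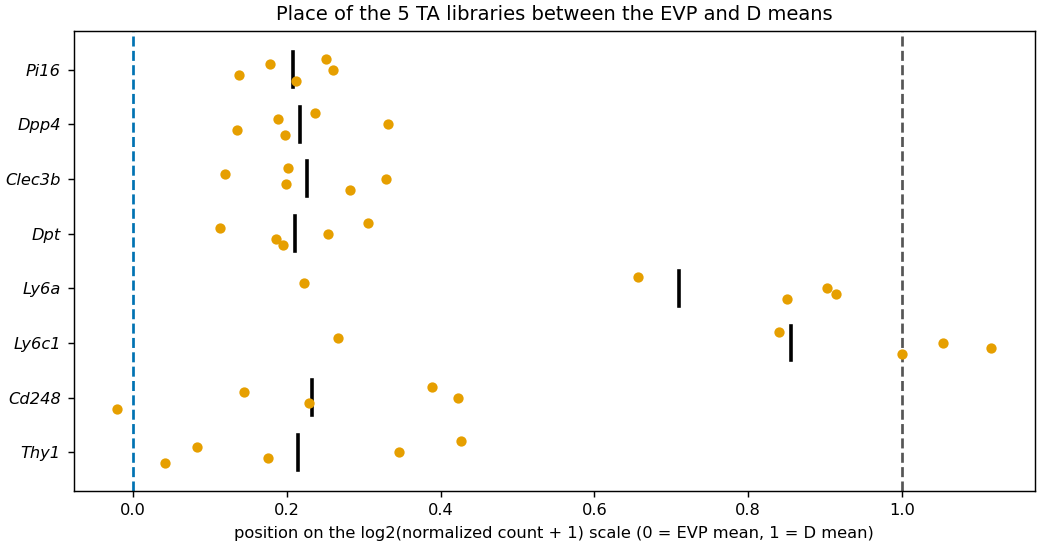
Place of each TA library between the EVP mean (0, dashed line) and the D mean (1, dashed line) on the scale of log2(normalized count + 1). Points are the 5 TA libraries and bars the place of the TA mean, which is 0.21 to 0.23 for 6 genes, 0.71 for Ly6a and 0.86 for Ly6c1.

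The members did not rank the TA libraries alike. TA replicate 2 was the highest for Clec3b, Dpt, Ly6a and Ly6c1, TA replicate 4 for Pi16 and Dpp4, and TA replicate 5 for Cd248 and Thy1. TA replicate 3 was the lowest for Pi16, Dpp4, Clec3b and Cd248. Markers of other cells also moved among these libraries. TA replicate 5 had the lowest Pecam1 of TA (372 normalized counts), and the highest Rgs5 (85852), a marker of pericytes, and Acta2 (42164), which encodes smooth muscle actin. The 12 mural markers together gave 12281 to 122785 normalized counts in TA, with TA replicate 5 highest, against 4059 to 18878 in EVP and 13611 to 25240 in D. None of the 12 was at 0 throughout a population. TA replicate 1, at the other end, had the highest Pecam1 of TA (15414) and the lowest Dpt (2942) and Thy1 (467). The part of mural or endothelial cells in the member values was not tested.

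**Figure D4:**
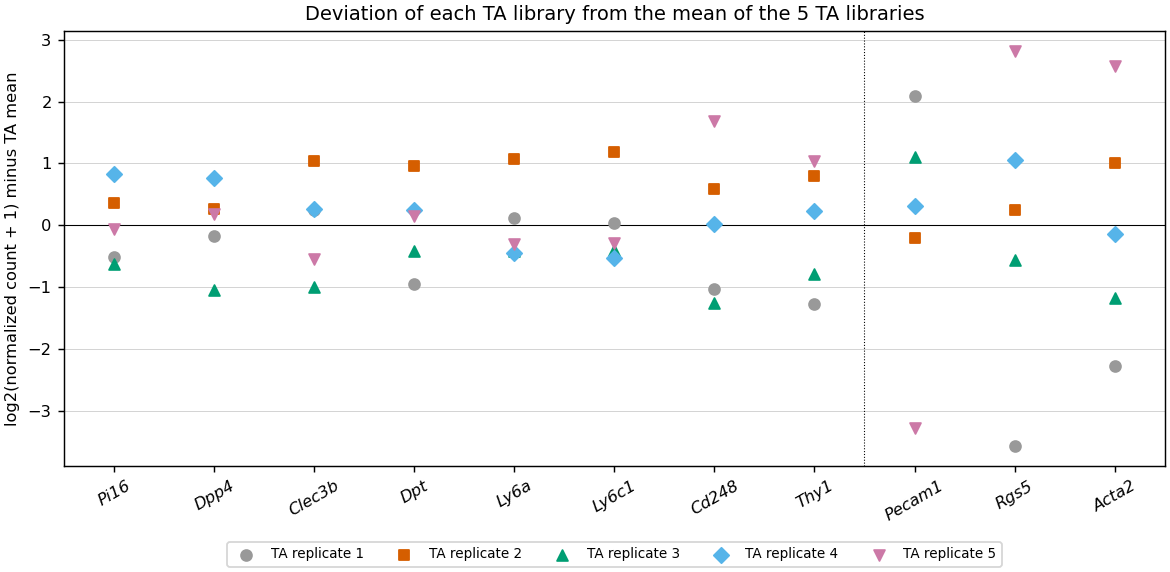
Deviation of each TA library from the mean of the 5 TA libraries, in log2(normalized count + 1), for the 8 genes (left of the dotted line) and for Pecam1, Rgs5 and Acta2 (right). TA replicate 5 lies 1.68 above the mean for Cd248, 2.82 above for Rgs5 and -3.28 from it for Pecam1.

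Levels of different genes were compared per kilobase of exon, taken as the union of exons over all annotated transcripts. The union was 6364 bases from 6 transcripts for Pi16 and 2605 bases from 1 transcript for Cd248. It can exceed the length of the transcripts present, so the order depends on this choice of length. In EVP the order was Ly6a (16609 normalized counts per kb), Dpt (15592), Cd248 (6041), Pi16 (5931), Ly6c1 (5884), Clec3b (2155), Dpp4 (1147) and Thy1 (965). No pair of neighbours in this order was free of overlap. Ly6a exceeded Dpt in only 3 of 5 libraries and Cd248 exceeded Pi16 in 2 of 5, whereas Dpt exceeded Cd248, Ly6c1 exceeded Clec3b and Clec3b exceeded Dpp4 in all 5. In TA, Ly6a (5931 per kb) and Dpt (3621) were again first and Dpp4 (294) was last. In D the order was Ly6a (3707), Ly6c1 (1414), Cd248 (77.1), Dpt (17.3), Thy1 (15.3), Dpp4 (2.83), Clec3b (2.69) and Pi16 (2.55). There Ly6a lay above Ly6c1, Ly6c1 above Cd248 and Thy1 above Dpp4 without overlap, and the last 3 genes could not be ranked beyond their spread. By its mean per kb of this union, Pi16 stood in 4th place in EVP and in 8th in D, and overlapped with its neighbours in both.

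For each member the 3 genes with the most similar pattern were found among the 25548 other tested genes. The measure was the root mean square difference of log2(normalized count + 1) over the 15 libraries, after the mean of each gene was subtracted, and it is largely set by the gaps between populations. Ly6a and Ly6c1 were each other's nearest gene at 0.20, followed for both by Dsel and by Ifi204, an interferon-induced gene. No other member had a member among its 3 nearest genes. Thy1 was nearest to Ctsk at 0.27, which encodes the collagen-degrading cathepsin K, then to Steap4 and Col6a1. Dpt was nearest to Dcn at 0.39, which encodes decorin, then to Cpxm1 and Efemp1. Clec3b was nearest to Osr1 at 0.60, a transcription factor of connective tissue progenitors, then to C3 and Efemp1, and Dpp4 to Thbs3 at 0.62, then to Sod3 and Prrx1. Cd248 was nearest to the collagen genes Col5a3 and Col6a3, both at 0.60, and to Ggt5. Pi16 had the least similar neighbours, Dpep1 at 0.89, then Sfrp4 and Scara5.

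The gene lists were chosen with earlier results of these data known. Their counts and p-values are therefore given as a description. Genes known from adventitial fibroblasts alongside the members were also mostly higher in EVP. Of 20 such companions, 15 were called higher in EVP than in D by limma and 1 was called lower, against 11.6% of all tested genes called higher in EVP and 7.46% called higher in D. Their median log2 difference was 5.74, against 0.46 over all tested genes. Mfap5, which encodes a microfibril protein, measured 31165 ± 12504 in EVP, 8174 ± 3183 in TA and 35.2 ± 47.1 in D (adjusted p between EVP and D 1.05e-07). Igfbp6, which encodes a binding protein of insulin-like growth factors, measured 13728 ± 7571, 3134 ± 1529 and 14.9 ± 12.7 (adjusted p = 2.71e-09). The companion called lower was Procr, the endothelial protein C receptor, at 1065 ± 166 in EVP and 2562 ± 805 in D (adjusted p = 0.00809). The other 4 were not called, among them Cd34, whose protein was used in the sort. Between EVP and TA 6 of the 20 companions were called by limma, all higher in EVP, against 1.56% of tested genes called higher in EVP and 1.94% called higher in TA. The count was 7 by edgeR, 12 by DESeq2, 12 with a pseudocount of 8, 10 after quantile normalization and 3 without replicate 1 of every population.

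The members did not stand alone among fibroblast genes. All 16 pan-fibroblast genes were called higher in EVP than in D, with a median log2 difference of 8.08, and 10 of them were called higher in EVP than in TA by limma, against 5 by edgeR. Pdgfra, a growth factor receptor of most fibroblasts, measured 7847 ± 2710 in EVP, 1935 ± 999 in TA and 23.0 ± 28.1 in D, and the proteoglycan gene Lum measured 20714 ± 12833, 5644 ± 4028 and 27.1 ± 23.8. Of 13 genes of activated fibroblasts, 11 were called higher in EVP than in D, among them Lrrc15 at 1736 ± 501 against 3.44 ± 4.79, and Adam12 was called lower, a call that 17 of 25 alternatives did not make. Between EVP and TA limma called none of the 13 (4 at an unadjusted p under 0.05), edgeR none and DESeq2 3, against 3.5% of all tested genes called by limma. Genes of parenchymal fibroblasts were divided, with 5 of 10 called higher in EVP (Penk at 1233 ± 667 against 8.86 ± 17.4, and Apod among them) and 5 called higher in D. The latter were Col15a1, Col4a1, Col4a2, Hspg2 and Sparcl1, of which the type IV collagens and Hspg2 encode basement membrane proteins that endothelial cells also make.

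**Figure D5:**
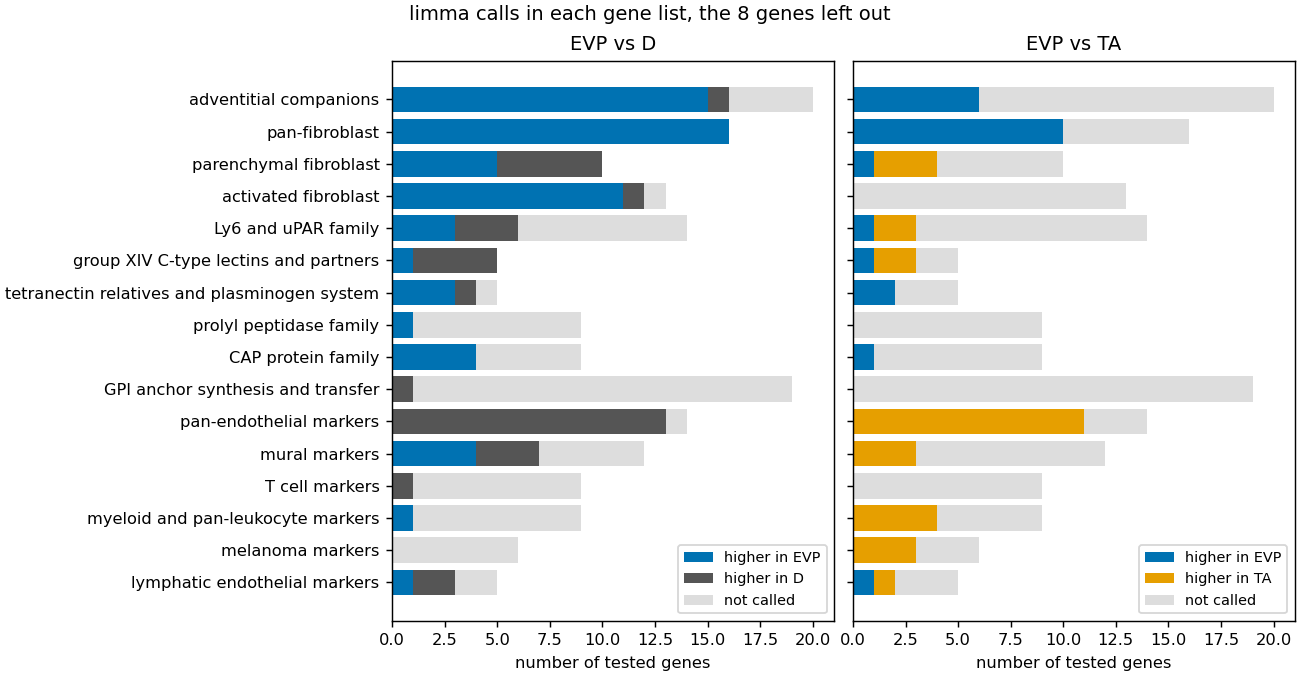
Number of tested genes in each list that limma called higher in EVP, called higher in the other population, or did not call, for EVP against D (left) and EVP against TA (right). The 8 members are left out of the lists. All 16 pan-fibroblast genes are called higher in EVP than in D, and 13 of 14 pan-endothelial genes are called higher in D. The pan-endothelial genes include Pecam1 and Kdr, whose proteins were used in the sort.

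The relatives of single members by family were called in both directions. Cd248 belongs to the group XIV C-type lectins, whose other members are mostly endothelial. Of these and their partners, Cd93, Clec14a, Mmrn1 and Mmrn2 were called higher in D, with Cd93 at 223 ± 170 in EVP and 20709 ± 3952 in D (adjusted p = 3.76e-06). Thbd, the thrombomodulin gene, was the only one of the 5 called higher in EVP, at 3531 ± 1853 against 1603 ± 477 (adjusted p = 0.0383), and 10 of 25 alternatives did not call it. Of 14 tested genes of the Ly6 and uPAR family, 3 were called higher in EVP (Ly6k, Lynx1 and Lypd1) and 3 higher in D (Gpihbp1, Cd59a and Plaur). Gpihbp1, which carries lipoprotein lipase across capillary endothelium, measured 214 ± 227 in EVP and 34104 ± 6797 in D. Ly6e, the most abundant of the 14 in EVP, measured 13466 ± 2755 in EVP and 13759 ± 2485 in D.

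Of 9 relatives of Dpp4 in the prolyl peptidase family, Fap was the only one called between EVP and D, where 19.0% of all tested genes were called. The CAP proteins related to Pi16 had 4 of 9 genes called higher in EVP, with Crispld2 at 967 ± 426 against 25.9 ± 24.0 and Pi15 at 287 ± 237 against 8.58 ± 17.5, and limma, edgeR and DESeq2 called none higher in D (0 at an unadjusted p under 0.05). Among relatives of tetranectin and genes of the plasminogen system, the genes called included Clec11a and Plat, higher in EVP, and Plaur, higher in D. Of 19 genes that build and attach the GPI anchor carried by Thy1, Ly6a and Ly6c1, 1 was called between EVP and D (Pigq, higher in D, adjusted p = 0.0449), and 13 of 25 alternatives did not call it.

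Markers of other cell types were read beside the members. Blood cells were to be removed by depletion and gating on lineage markers, and tumor cells by gating on GFP. Of 14 pan-endothelial genes (Pecam1 and Kdr of the sort among them), 13 were called higher in D than in EVP and 11 higher in TA than in EVP. They summed to 3728 to 8391 normalized counts in EVP, 10460 to 116270 in TA and 171938 to 287458 in D, and none was at 0 throughout a population. Of 12 mural genes, 4 were called higher in EVP than in D and 3 lower. The 9 myeloid and pan-leukocyte genes summed to 2220 to 12121 in EVP, 7475 to 44721 in TA and 3276 to 10094 in D. Csf1r was called higher in EVP than in D, a call that 7 of 25 alternatives, edgeR among them, did not make. The 10 T cell genes summed to 50.1 to 890 over all libraries. Lck was called higher in D than in EVP, a call that 11 of 25 alternatives did not make. DESeq2 called 3 of the 10 higher in EVP and 1 higher in D. The 6 melanoma genes summed to 29156 to 66912 in EVP, 68700 to 175253 in TA and 18070 to 47749 in D. Between EVP and D limma called none of them (3 at an unadjusted p under 0.05), edgeR none and DESeq2 1. With D replicate 3 left out limma called 2, and with the replicate number as a block it called 3. All 6 were called higher in TA than in D by limma (8.21% of tested genes). Of 5 lymphatic genes, Pdpn, also a fibroblast gene, was called higher in EVP than in D, and Flt4 and Lyve1 were called lower. For Lyve1, 5 of 25 alternatives did not make the call. The part of these cells in the member values was not tested.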

How the data were processed

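Processed RNA sequencing data of 15 libraries, 5 each of EVP, TA and D cells, were used. The authors amplified RNA with a modified Smart-Seq2 protocol that does not mark strand, mapped reads with STAR 2.5.3a to GRCm38, used HTSeq-count to assign them to genes and divided the counts by DESeq2 1.10.1 size factors. The deposited values are therefore a signal, the normalized count. Their comparison tables (fold changes and p-values) were not used. Of all values, 100% were whole multiples of the smallest value above 0 in their library (within 1e-06), so whole reads were recovered.

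The members and lists were chosen with earlier results of these data known. Genes averaging at least 5 normalized counts (25549) were fitted on the scale of log2(normalized count + 1) with limma 3.58.1 in R 4.3.3 (trend, two-sided, all 15 libraries, Benjamini-Hochberg adjusted p under 0.05 over all tested genes). Of 53465 genes, 6716 had no value above 0. Member values carry no p. Ratios are ratios of mean normalized counts, and values after ± are SDs (n = 5). Beside the members, the text names the 2 listed genes with the largest positive and negative log2 difference between EVP and D among those called in each list, defining markers and nearest genes, and in addition Cd34, Col15a1, Col4a1, Hspg2, Acta2, Ly6c2, Ly6e, Ly6k, Clec14a, Mmrn1, Plat and Gm10800, chosen after their values were seen. A gene that this rule names is not reported here. Ly6m was not in the table, and Itgam and Ccl21a had 2 rows each and were left out. Promoters came from RefSeq (GRCm38.p6), and exon lengths, coding sequences and neighbours from GENCODE for GRCm38. Counting intervals and the floor of 3 reads cover counting error only. The code was tested on simulated data. Alternatives covered pseudocount, filter, scaling, edgeR 4.0.16 and DESeq2 1.42.0 on whole reads, the replicate number as a block, and libraries left out.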

Additional observations from a re-analysis of the deposited data

Results flagged for a closer look

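Ly6a and Ly6c1 each had 1 TA library far above the others of its population. In TA replicate 2, Ly6a measured 13692 normalized counts, and the next library 7087, a gap of 0.742 of the whole TA range. In the same library Ly6c1 measured 6365, and the next library 2875, a gap of 0.792 of the range. Both gaps exceeded the 95% critical value of Dixon's test for 5 samples, 0.71. The test was applied to 24 groups of 5 libraries (8 genes in 3 populations), and chance flags about 1 group in 20. Clec3b and Dpt were also highest in TA replicate 2, with gaps below the critical value.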

How the results depend on the processing

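Over all alternatives, 597 of 600 member log2 differences kept their direction and stayed within 1 SD of the libraries. The exceptions were Clec3b with a pseudocount of 8, at 7.52 between EVP and D and 5.34 between TA and D (9.72 and 7.52 as reported), and Ly6c1 between TA and D without TA replicate 2, at -0.0044 (0.29 as reported, and up to 0.44 without D replicate 4). All 200 places of TA on the scale between EVP and D stayed within 1 SD. Part of these values could not move. Other filters and the replicate block leave a member difference or place as it is. Leaving out a library of the third population does not alter a difference between the other populations. The SD was also wide where D was near 0, at 2.16 on the log2 scale for Pi16 in D. Between EVP and D, 4859 genes were called (2952 higher in EVP), 3849 by edgeR, 5547 by DESeq2 and 3903 after quantile normalization (1920 higher in EVP), and 4106 to 5150 when single libraries were left out. Between EVP and TA, 893 genes were called (398 higher in EVP), 663 by edgeR, 1900 by DESeq2, 956 after scaling to the same total (240 higher in EVP), 1166 with a pseudocount of 8 (621 higher in EVP) and 522 without replicate 1 of every population. Leaving out single libraries gave 428 (without EVP replicate 2) to 1209 (without TA replicate 5), with 471 without EVP replicate 3 and 568 without TA replicate 3. Between TA and D, 3199 genes were called (2098 higher in TA), 2570 by edgeR, 4202 by DESeq2, and 2117 after quantile normalization (1206 higher in TA), and 2403 to 3581 with single libraries left out. Of the listed genes, 52 were called between EVP and TA, but 31 without replicate 1 of every population and 32 (without EVP replicate 2) to 57 (without TA replicate 5) with single libraries left out, 34 of them without EVP replicate 3. Between EVP and D 98 listed genes were called, and 89 to 100 with single libraries left out. Among named genes outside the members, calls between EVP and D were lost in 63 of 1025 fits, for 6 of 41 genes (Adam12, Csf1r, Lck, Lyve1, Pigq and Thbd), and no direction turned. Between EVP and TA 8 of 20 named genes lost the call at least once. The causes were not tested. Same-numbered libraries of different populations deviated together in part, with correlations from -0.136 (replicates 3 of EVP and TA) to 0.689. Differently numbered libraries gave correlations from -0.564 to 0.401, so the ranges overlapped. The highest of these was between EVP replicate 5 and TA replicate 4. The sources used here do not say whether a number marks a shared tumor or day. The main fit therefore did not take the numbers as pairs, and leaves this joint deviation in its error. The replicate block gave 5710 calls for EVP against D, 1262 for EVP against TA and 4047 for TA against D. It called 10 of the 20 adventitial companions higher in EVP than in TA, and 3 of the 6 melanoma genes higher in EVP than in D, where the fit without it called none. In D the 4 adventitial genes rested on at most 64 reads per library, and the counting error of so few reads is part of those values.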
